A study of Mus musculus with 16 samples.

Results

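Genes of superoxide, peroxide and glutathione defence were followed in mouse heart ventricles with and without the RNA-binding protein RBPMS in heart muscle cells. They are the rows for Sod1, Sod2, Sod3, Cat, Gpx1, Gpx3, Gpx4, Gclc, Gclm and Nqo1, picked by symbol, 10 of 54108 rows with a gene symbol, and all 10 passed the filter on low counts, which left 16051 genes. The libraries are messenger RNA of ventricles from mice aged 8 weeks. Controls carried floxed Rbpms alleles (Rbpms fl/fl) with no Cre named in their genotype (4 libraries), and cardiac knockouts (cKO) carried the same alleles with Myh6-Cre (4 libraries). Both genotypes thus share the floxed alleles, and no group used here is labelled with Myh6-Cre alone, so an effect of the Cre itself and the loss of Rbpms cannot be told apart. The Myh6 promoter drives Cre in cardiomyocytes, so the other cells of the ventricle should keep Rbpms. Each genotype has 3 males and 1 female, and the female is replicate 3 in both. Nothing in the labels says that the libraries of a genotype came from separate animals, so a p-value here speaks of the variation among these libraries only. The libraries of newborn ventricles were not analysed here.

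Superoxide leaks from the respiratory chain and is made by oxidases at membranes. Superoxide dismutases turn it into hydrogen peroxide: SOD1 works in the cytosol with copper and zinc, SOD2 in the mitochondrial matrix with manganese, and SOD3 is secreted and binds the matrix around cells. Catalase in peroxisomes, glutathione peroxidases and peroxiredoxins then reduce the peroxide. Glutathione is the electron source of the glutathione peroxidases, and its synthesis is limited by glutamate-cysteine ligase, which has a catalytic subunit (GCLC) and a modifier subunit (GCLM). NQO1 reduces quinones and is a standard target of the transcription factor NRF2, which acts through antioxidant response elements. Heart muscle is rich in mitochondria, and mice without SOD2 are known to die early with a damaged heart.

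The 3 glutathione peroxidases among these genes are selenoproteins, whose active-site selenocysteine is encoded by an in-frame TGA that is a stop codon elsewhere. Their mRNAs are shown around this codon because the enzymes share it while only Gpx3 passed the test between genotypes. The difference between the 3 genes was not tested. The TGA is in capitals with 12 coding bases on each side, 5′ to 3′, taken from GENCODE M21 transcripts (GRCm38, plus strand). It is codon 47 in Gpx1 (chr9:108339451-108339453), codon 73 in Gpx3 (chr11:54907256-54907258) and codon 73 in the principal Gpx4 transcript with the longest coding sequence (chr10:80054737-80054739).
Gpx1: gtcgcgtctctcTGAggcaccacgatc
Gpx3: gtagccagctacTGAggtctgacagac
Gpx4: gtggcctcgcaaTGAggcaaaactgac

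Promoters are shown for Sod1, Sod2 and Gclm, the 3 genes that fell in cKO ventricles. The sequences are the 250 bases before the RefSeq start in GRCm38.p6, all on the plus strand: chr16:90220512-90220761 for Sod1, chr17:13007589-13007838 for Sod2 and chr3:122245307-122245556 for Gclm. Searched on both strands were the core of the antioxidant response element (TGACNNNGC), the AP-1 site TGANTCA and the GC box GGGCGG. The first 2 motifs can overlap, since both start with TGA. In the Sod1 and Gclm sequences the capitals mark the element core, found on the minus strand, and in the Sod2 sequence they mark its GC boxes.
Sod1: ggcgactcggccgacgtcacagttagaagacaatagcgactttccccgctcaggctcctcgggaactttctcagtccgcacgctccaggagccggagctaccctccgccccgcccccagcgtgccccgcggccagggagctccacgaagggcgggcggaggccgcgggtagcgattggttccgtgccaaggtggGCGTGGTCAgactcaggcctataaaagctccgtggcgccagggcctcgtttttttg
Sod2: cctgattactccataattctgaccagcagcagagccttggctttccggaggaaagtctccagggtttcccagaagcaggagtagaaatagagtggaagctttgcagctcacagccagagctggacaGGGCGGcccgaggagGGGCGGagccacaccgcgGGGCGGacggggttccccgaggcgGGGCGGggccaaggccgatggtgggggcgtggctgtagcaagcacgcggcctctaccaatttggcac
Gclm: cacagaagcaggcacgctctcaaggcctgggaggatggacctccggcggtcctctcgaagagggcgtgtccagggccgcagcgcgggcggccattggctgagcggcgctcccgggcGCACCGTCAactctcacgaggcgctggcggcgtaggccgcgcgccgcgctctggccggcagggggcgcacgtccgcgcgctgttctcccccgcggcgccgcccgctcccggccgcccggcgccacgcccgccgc

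RefSeq promoters were matched for 8 of the 10 genes, with 11 start sites between them. Only the Sod1 and Gclm windows held the element core, 56 and 134 bases before the start, and no window held the AP-1 letters. Of 32851 promoter windows of this length 10.2% held the element core, 6.75% the AP-1 site and 32.7% a GC box. GC boxes numbered 4 in Sod1, 4 in Sod2, 3 in Gclm, 2 in Nqo1, 1 each in Cat and Gpx3, 0 in Gpx1 and 0 to 2 at the 4 starts of Gpx4. The Sod2 window lies mostly in an intron of an upstream-starting GENCODE transcript, and its end, like that of the Sod1 window, reaches a few bases into an annotated first exon. The Gpx1 window (chr9:108338830-108339079) begins before the GENCODE start of the gene and runs on inside it. The Gpx3 window (chr11:54902604-54902853) lies wholly inside the annotated gene, as do the Gpx4 windows apart from the most upstream. The counts in these windows are thus not all of bases upstream of a gene. These matches describe the letters in the windows only.

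Library totals were 20190334 to 24540433 counts. Levels are given as CPM, counts scaled to a common library size, with TMM factors for composition. Rbpms, the targeted gene, measured 101.6 to 193 CPM in controls and 26.9 to 38.8 in cKO, so no library went against its label (log2 fold change -2.33, adjusted p = 3.54e-05). At an adjusted p under 0.05 (edgeR quasi-likelihood test over all tested genes) 19.3% of 16051 genes changed, 9.64% higher and 9.64% lower in cKO, and 23.5% had groups that did not overlap. With total counts in place of TMM, 66.1% of the called genes were higher. The median log2 fold change over all tested genes was 0.01. Summed cardiomyocyte markers measured 35670 to 46310 CPM in controls and 29930 to 35850 in cKO, and all 8 markers were detected. Fewer cells of a type and less RNA per cell cannot be told apart in such bulk libraries.

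Of the 10 defence genes, 2 rose (Sod3 and Gpx3), 3 fell (Sod1, Sod2 and Gclm) and 5 did not pass the test (Cat, Gpx1, Gpx4, Gclc and Nqo1). These are 5 called genes of 10, beside 19.3% called among all tested genes. The set was chosen with earlier results of these data known, so the comparison is descriptive only. The median log2 fold change of the set was 0.22. In each of the 5 called genes the 4 cKO libraries lay wholly above or wholly below the 4 controls, as in 23.5% of all tested genes. Their exact two-sided permutation p of the CPM values was 0.0286, the smallest that 4 against 4 libraries can give. This p follows from the lack of overlap in the same values, so it is not separate evidence. For the 5 genes not called, the exact permutation p was 0.0571 to 0.314. The sum over the 10 genes overlapped between genotypes, with 1705 to 1916 CPM in controls and 1741 to 1879 in cKO. The shares of Sod2 and Gpx3 in it did not: Sod2 gave 41.2% to 43.4% of the counts of these genes in controls and 24.9% to 34.1% in cKO, while Gpx3 gave 6.20% to 11.1% and 12.3% to 18.4%. Shares were computed for Sod2 and Gpx3 only, both called above, so they are not separate evidence.

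**Figure D1:**
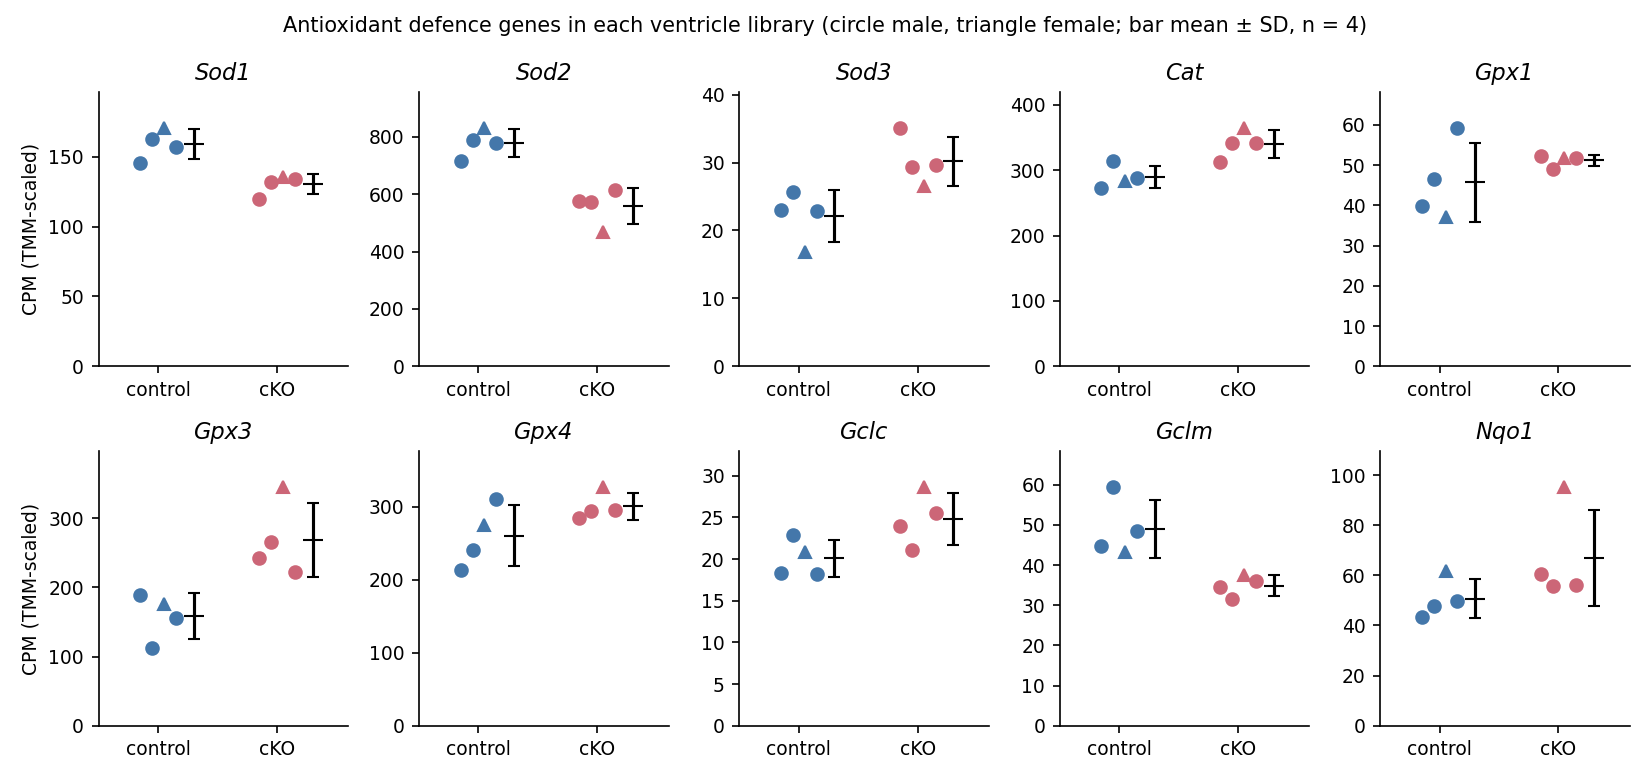
Level of each of the 10 genes (CPM, axis from 0) in the 4 control and 4 cKO libraries, with circles for males, triangles for females and black bars for the mean ± SD. Sod1, Sod2 and Gclm sit lower in every cKO library than in any control, and Sod3 and Gpx3 sit higher.

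Sod2, the mitochondrial manganese enzyme (chr17:13006846-13040063, protein-coding, GRCm38), had the most counts of the set. Control replicates 1 to 4 measured 715, 788, 831 and 779 CPM, and cKO replicates 1 to 4 measured 577, 572, 468 and 616 CPM. All cKO libraries were thus below all controls, and the female was the highest control and the lowest cKO library. Sod2 fell 1.39-fold, from 778 ± 48.1 to 558 ± 63.4 CPM (SD, n = 4 per genotype; log2 fold change -0.48 ± 0.10 SE, adjusted p = 0.00458). The call held in 8 of 8 fits that each left out 1 library, with log2 fold changes of -0.53 to -0.40.

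Sod1, the cytosolic enzyme (chr16:90220754-90226329), measured 145, 162, 171 and 157 CPM in controls and 119.8, 132, 135 and 134 CPM in cKO. The groups did not overlap, with 135 as the highest cKO value and 145 as the lowest control. Sod1 fell 1.22-fold, from 158.7 ± 10.6 to 130.2 ± 7.11 CPM (log2 difference -0.29 with an SE of 0.08, adjusted p = 0.0222). The call was lost without control replicate 2 (adjusted p = 0.0559) or cKO replicate 1 (0.0846) or 2 (0.0505), in males alone (0.0634) and with total counts (0.112, log2 fold change -0.20). Scaf4 overlaps Sod1 on the other strand. The kit keeps strand, but the strand setting of the counting is not given in the sources used here, so reads of Scaf4 may be counted in Sod1. Scaf4 itself measured 38.1 CPM in controls and 36.9 in cKO and was not called (adjusted p = 0.714).

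Sod3, the secreted enzyme (chr5:52363791-52371418), went the other way at a much lower count. Controls measured 23.1, 25.7, 16.8 and 22.9 CPM and cKO libraries 35.1, 29.4, 26.6 and 29.7 CPM. The gap between groups was small, from 25.7 in the highest control to 26.6 in the lowest cKO library, which was the female. Sod3 rose 1.36-fold, from 22.1 ± 3.76 to 30.2 ± 3.58 CPM (log2 difference 0.45 with an SE of 0.13, adjusted p = 0.032). Its call held in 2 of 8 leave-one-out fits: adjusted p was 0.0547, 0.0519 and 0.0554 without control replicate 1, 3 or 4 and 0.102, 0.0575 and 0.0591 without cKO replicate 1, 2 or 4.

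Gpx3, the secreted glutathione peroxidase of plasma (chr11:54902453-54910377), had the largest fold change of the 10 genes. Its controls measured 189, 113, 176 and 156 CPM and its cKO libraries 242, 266, 345 and 222 CPM. Control replicate 2 was the lowest library and the cKO female the highest, and the groups did not overlap. Gpx3 rose 1.70-fold, from 158 ± 33.2 to 269 ± 54.0 CPM (log2 difference 0.76 with an SE of 0.17, adjusted p = 0.00728). Each leave-one-out fit kept the call, with log2 fold changes of 0.62 to 0.85.

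Beside the rises of Sod3 and Gpx3, whose products are secreted, all 8 fibroblast markers measured (Pdgfra, Col1a1, Col3a1, Dcn, Lum, Tcf21, Dpt and Gsn) rose, from a sum of 2430 to 3163 CPM in controls to 4822 to 5449 in cKO. Of 8 macrophage markers 2 rose (Lyz2 and Mrc1), with sums of 196 to 319.9 and 321 to 362 CPM. No endothelial marker of 8 was called (1119 to 1419 and 1032 to 1246 CPM). Beside the falls of Sod1, Sod2 and Gclm, 2 of 8 cardiomyocyte markers fell (Tnni3 and Ryr2). Among all tested genes 19.3% were called, 9.64% in each direction. Beside that share, 2 called of 8 macrophage or cardiomyocyte markers is a small count. By itself it does not show a change in either cell type. No marker in these lists was at 0 in all libraries. The part of these markers in the results was not tested.

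Gpx1 and Gpx4, the intracellular glutathione peroxidases, were not called. Gpx1 (chr9:108338903-108340343) measured 39.9, 46.5, 37.1 and 59.3 CPM in controls and 52.2, 49.1, 51.8 and 51.7 CPM in cKO. The controls ranged around the tight cKO values, with control replicate 4 the highest library of all. Its log2 fold change was 0.16, with a 95% interval of -0.11 to 0.44 (adjusted p = 0.416), and without control replicate 4 it was 0.31 and passed (adjusted p = 0.0324).

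Gpx4 (chr10:80047166-80056439), which reduces lipid peroxides in membranes, measured 213, 241, 275 and 310.3 CPM in controls and 284, 295, 327 and 295 CPM in cKO. Control replicate 4 was again the highest control, above 3 of the cKO libraries. The log2 fold change was 0.21 with an interval of -0.03 to 0.45 (adjusted p = 0.221), and it passed only with total counts (0.30, adjusted p = 0.0482). Both intervals reach well above 0, so these data do not show that Gpx1 or Gpx4 stayed level.

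Cat, catalase (chr2:103453849-103485160), measured 273, 314, 284 and 288 CPM in controls and 312, 342, 365 and 341 CPM in cKO. Its groups overlapped only in that control replicate 2 exceeded cKO replicate 1. The log2 fold change was 0.23 ± 0.08 SE, just outside the threshold (adjusted p = 0.0597, exact permutation p = 0.0571). Cat passed with DESeq2 (adjusted p = 0.0351), with upper-quartile factors (0.0369), with total counts (0.0207) and with a stricter filter (0.0471).

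Of the glutamate-cysteine ligase subunits, the modifier fell and the catalytic subunit did not pass. Gclm (chr3:122245557-122270732) measured 44.9, 59.4, 43.2 and 48.5 CPM in controls and 34.5, 31.4, 37.6 and 36.0 CPM in cKO. All 4 cKO libraries were below all controls. Gclm fell 1.40-fold, from 49.0 ± 7.30 to 34.9 ± 2.63 CPM (log2 difference -0.49 with an SE of 0.11, adjusted p = 0.00749), in every leave-one-out fit too (-0.55 to -0.39). The annotation places Gm6061, a processed pseudogene, within Gclm on the same strand and Gm17494 on the other, so its reads may be shared with them.

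Gclc, the catalytic subunit (chr9:77754535-77794485), measured 18.3, 22.9, 20.9 and 18.2 CPM in controls and 24.0, 21.1, 28.6 and 25.6 CPM in cKO. Here cKO replicate 2 lay within the control range. The log2 fold change was 0.31 with an interval of 0.06 to 0.55, which did not pass over all genes (adjusted p = 0.0835), and it passed without cKO replicate 2 (0.38, adjusted p = 0.0469).

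Nqo1 (chr8:107388225-107403206) measured 43.5, 47.8, 61.6 and 49.9 CPM in controls and 60.5, 55.7, 95.2 and 56.1 CPM in cKO. The female was the highest library in each genotype, and the control female exceeded all 3 cKO males. Across all libraries the log2 fold change was 0.40 ± 0.17 SE and did not pass (adjusted p = 0.129). With sex as a covariate it was 0.38 and passed (adjusted p = 0.0076), and it also passed with no filter on low counts (0.0195). The mean log2 difference between cKO and control was 0.29 in males and 0.63 in the single pair of females. For none of the 10 genes did the effect of genotype differ between sexes at an adjusted p under 0.05, but with 1 female per genotype this test can see large differences only.

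**Figure D2:**
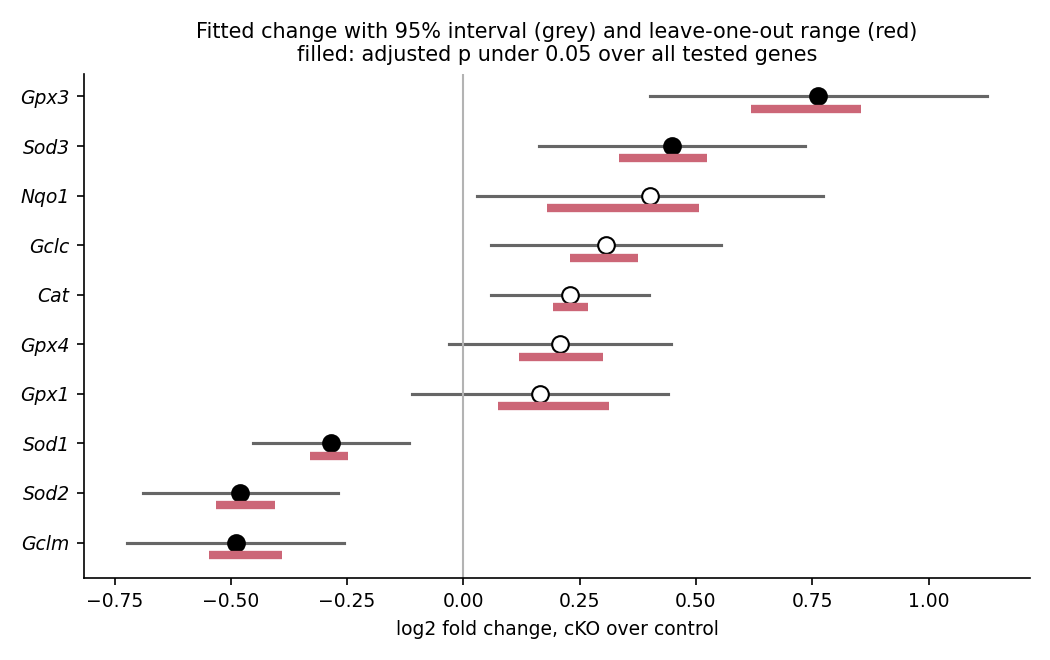
Fitted log2 fold change (cKO over control) of the 10 genes with 95% intervals in grey, and in red the range over fits that each left out 1 library. Filled points passed the threshold. Gpx3 lies highest at 0.76 and Gclm lowest at -0.49, and no red bar crosses 0.

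Ratios of counts within a library do not depend on depth or scaling. The following pairs were chosen after the values were seen and are given without a test. The Gclm to Gclc ratio was 2.45, 2.59, 2.07 and 2.66 in controls and 1.44, 1.49, 1.31 and 1.41 in cKO. It was lower in all cKO libraries, and the cKO values were close together. The Sod2 to Cat ratio was 2.51 to 2.93 in controls and 1.28 to 1.85 in cKO. Sod2 to Sod1 stayed within 4.86 to 4.96 in controls and was 3.46 to 4.82 in cKO, with the female lowest. Sod3 to Sod1 was 0.0987 to 0.159 in controls and 0.196 to 0.293 in cKO. The Gpx4 to Gpx1 ratio overlapped, with 5.19 to 7.40 and 5.44 to 6.32, and so did Gpx3 to Gpx1, with 2.427 to 4.735 and 4.291 to 6.667.

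**Figure D3:**
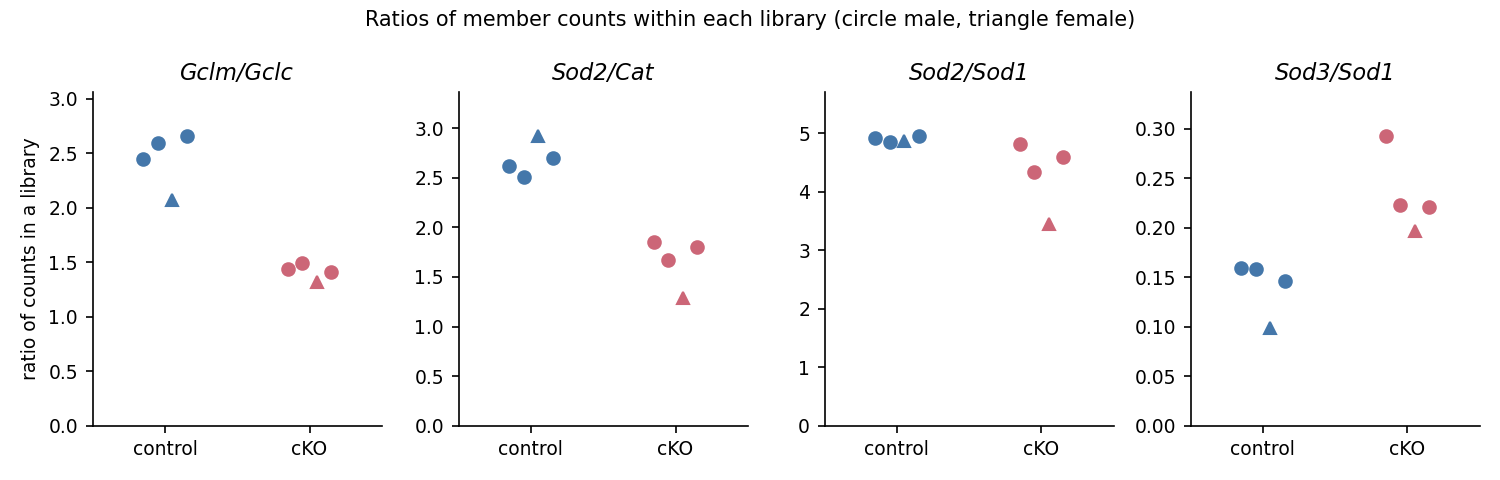
Ratio of counts in each library for Gclm to Gclc, Sod2 to Cat, Sod2 to Sod1 and Sod3 to Sod1 (axis from 0), with circles for males and triangles for females. The groups do not overlap in these 4 panels, whose pairs were chosen after the values were seen. Gclm to Gclc is 2.07 or more in controls and 1.49 or less in cKO.

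Levels can be compared between genes only per length, and here the length matters. With CPM divided by the length of all annotated exons in kilobases (RPKM), Gpx4 ranked first in controls at 151 ± 24.3, followed by Cat at 110.9 ± 6.59, Gpx3 at 87.3 ± 18.3 and Sod2 at 77.8 ± 4.80. Sod1 (40.0 ± 2.68), Nqo1 (32.6 ± 4.99) and Gpx1 (31.7 ± 6.84) formed a middle tier, and Gclm (7.79 ± 1.16), Sod3 (5.92, between 4.51 and 6.88) and Gclc (5.33 ± 0.60) were lowest. Among neighbours in this order, the library ranges overlapped for Gpx3 with Sod2, for Nqo1 with Sod1 and Gpx1, and for Sod3 with Gclm and Gclc, while Gpx4, Cat and Gpx3 were separate, the last 2 by a small margin (104.5 against 104.1). In cKO the order began with Gpx4 (174 ± 10.8), Gpx3 (148 ± 29.8) and Cat (130.0 ± 8.30), and Sod2 measured 55.8 ± 6.34. Gpx4, Gpx3 and Cat followed each other with overlapping ranges, apart from Gpx4 and Cat. Gclm was then last, at 5.55 ± 0.42, though not with principal transcripts. Sod1 moved most with the length used: with its principal transcript of 641 bases, in place of 3970 bases of exons, its control RPKM was 248 ± 16.6, next to Gpx4 at 271 ± 43.7. With principal transcripts Sod2 also lay above Cat in controls (132.8 against 110.9 RPKM) and below it in cKO (95.3 against 130.0). Gpx4 was first, and Sod3, Gclc and Gclm were the last 3, with each of the 3 lengths tried, in both genotypes.

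The wider pathway was described with 9 lists of genes, by counts and medians and with no test of a list. The share of each list that was called is given in parentheses, beside 19.3% of all tested genes (9.64% in each direction). The lists, like the 10 genes, were chosen with earlier results of these data known, so these shares are descriptive only. In the list of other glutathione peroxidases, peroxiredoxins and thioredoxins, 6 of 22 tested genes fell and 1 rose (31.8%; median log2 fold change -0.06). Txnrd2, the mitochondrial thioredoxin reductase, fell 1.45-fold, from 30.0 ± 1.65 to 20.7 ± 1.46 CPM (adjusted p = 0.00109). Prdx3, the mitochondrial peroxiredoxin, fell 1.37-fold, from 261 ± 25.4 to 190.4 ± 22.8 CPM (adjusted p = 0.00897). Glutaredoxin Glrx fell 1.79-fold and Txnrd3 1.45-fold (adjusted p = 0.00124 and 0.00282). These 4 calls held in all 8 leave-one-out fits. Txn1, the riser, was called in 1 of these fits, without control replicate 2 (adjusted p = 0.044).

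Glutathione recycling and breakdown went both ways, with 2 of 14 genes higher and 3 lower (35.7%; median -0.00). Gsr, which regenerates reduced glutathione, rose 1.35-fold, from 30.5 ± 3.62 to 41.2 ± 1.80 CPM (adjusted p = 0.00683), and Anpep rose 1.26-fold (0.0174). Oplah, which salvages oxoproline, fell 1.34-fold (adjusted p = 0.0072). Slc25a39, a mitochondrial glutathione carrier, fell 1.29-fold (0.0221), and its relative Slc25a40, named after its values were seen, fell 1.24-fold (0.035). Of the 8 leave-one-out fits, Slc25a39 was called in 4 (adjusted p up to 0.0666) and Slc25a40 in 3 (up to 0.0937). With total counts Slc25a40 was not called. Gsr and Oplah held in all leave-one-out fits, whereas only 1 gene rose when control replicate 2 or cKO replicate 3 was left out, and only 1 fell when the library left out was control replicate 1 or cKO replicate 1 or 3.

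Glutathione transferases had 4 of 21 lower and 1 higher (23.8%; median -0.18). Gstk1, the form of mitochondria and peroxisomes, fell 1.91-fold, from 53.3 ± 6.16 to 27.9 ± 5.17 CPM (adjusted p = 0.00066), and Gstm7 fell 1.56-fold (0.00281). Gstp2 fell 2.70-fold at 1.72 ± 0.46 CPM in controls (adjusted p = 0.00954), and Gsta1 rose at 0.31 ± 0.20 CPM (adjusted p = 0.0252), a call lost when control replicate 1, control replicate 4 or cKO replicate 3 was left out. Without control replicate 3 the median of the list was -0.08. Gstp1, chosen after its values were seen, fell 1.30-fold (adjusted p = 0.0307), but was called in 2 of 8 leave-one-out fits (adjusted p up to 0.0866) and not with total counts. The called share of the list is near that of all tested genes. These genes belong to families of close copies, so reads may be split between relatives.

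The list of NRF2 regulators and targets had 5 of 22 higher and 2 lower (31.8%; median 0.22). Mafk, a small Maf partner of NRF2, rose from 41.0 ± 1.93 to 65.5 ± 13.4 CPM (log2 fold change 0.68, adjusted p = 0.00267). Ugdh, which makes UDP-glucuronate, and the efflux pump Abcc1 rose 1.57-fold and 1.39-fold (adjusted p = 0.00157 and 0.00529). Fth1, the ferritin heavy chain, fell 1.42-fold, from 1126 ± 124 to 795.5 ± 39.3 CPM (adjusted p = 0.00282). These 4 calls held in all leave-one-out fits. Chosen after their values were seen, Ephx1, a detoxifying hydrolase, rose 1.54-fold (adjusted p = 0.0121), Nfe2l1, a relative of NRF2, rose 1.22-fold (0.0423) and the pump Abcc4 fell 1.24-fold (0.0478). Of these only Ephx1 was called in all 8 fits, Nfe2l1 in 2 and Abcc4 in 1. A single gene of the list fell in 6 of the 8, that is without control replicates 2, 3, 4 and cKO replicates 1, 2, 3, each alone.

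NADPH feeds glutathione and thioredoxin reduction. In the list drawn up around its supply, which does not hold only enzymes that make NADPH, 6 of 17 genes fell and 1 rose (41.2%; median -0.33). Me3, a mitochondrial malic enzyme gene, fell 1.76-fold, from 83.7 ± 4.43 to 47.5 ± 5.52 CPM (adjusted p = 0.000153). Nadk2, the mitochondrial NAD kinase, fell 1.53-fold and Aldh1l2, a mitochondrial folate enzyme, 2.98-fold (adjusted p = 0.00063 and 0.00081). The cytosolic malic enzyme gene Me1 fell 1.34-fold (adjusted p = 0.00954), and with total counts it did not pass and 3 genes of the list fell. The median was -0.14 in males alone and -0.18 without control replicate 3. Me2, which rose in all libraries together (log2 fold change 0.39, adjusted p = 0.0357), was named after its values were seen and was not called without control replicate 1 or 2 or any 1 cKO library (adjusted p up to 0.0987).

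The list of superoxide and peroxide sources, which holds enzymes and their partner proteins, had 4 of 18 genes higher and 3 lower (38.9%; median 0.01). Maob, a monoamine oxidase of the outer mitochondrial membrane that releases peroxide, fell 4.31-fold, from 65.5 ± 13.4 to 15.2 ± 5.13 CPM (adjusted p = 0.000145). Its relative Maoa rose 1.82-fold, from 6.68 ± 0.81 to 12.2 ± 2.67 CPM (adjusted p = 0.00361). Nox4, an NADPH oxidase, rose 3.69-fold from 2.54 ± 0.26 to 9.36 ± 2.77 CPM (adjusted p = 0.000179), and Poldip2, a NOX4 partner, fell 1.34-fold (0.0054). The groups did not overlap for any of these 4 genes, as in 23.5% of all tested genes. The 4 were named for their small adjusted p in the same libraries. The other called genes, chosen after their values were seen, were Nos1 and Aox1, higher by 2.81-fold and 1.29-fold (adjusted p = 0.0128 and 0.0472), and Cyba, lower by 1.33-fold (0.0239). Nos1 was at a low level, with 0.61 ± 0.25 CPM in controls and 1.71 ± 0.53 in cKO. Of these other genes Nos1 was called in all 8 leave-one-out fits, Cyba in 4 and Aox1 in 2. Without control replicate 3 the median was -0.11.

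In the peroxisome list, 4 of 19 genes fell and 0 rose (21.1%; median -0.18), beside the log2 fold change of 0.23 of Cat. The share called in either direction was near the 19.3% of all tested genes, of which 9.64% were lower in cKO. Pex11a and Pex6 fell 1.43-fold and 1.38-fold (adjusted p = 0.00224 and 0.00575), and Pex26 and Pex2 fell 1.34-fold and 1.20-fold (0.0355 and 0.0376). Pex11a and Pex6 were called in all 8 leave-one-out fits, and Pex26 and Pex2 in 2 each (adjusted p up to 0.109 and 0.107) and in neither case with total counts. Without control replicate 4, cKO replicate 1 or cKO replicate 2, 2 of the list fell. Of the genes for copper and manganese supply to the dismutases, 2 of 7 fell (28.6%; median -0.17): the copper importer gene Slc31a1 by 1.25-fold (adjusted p = 0.0315) and the zinc and manganese carrier gene Slc39a14 by 1.21-fold (0.0363). Neither was called with total counts, nor when control replicate 1, 2 or 4 or cKO replicate 2 or 3 was left out. With cKO replicate 1 or 4 left out, 1 of them was, and the median was -0.28 without cKO replicate 1. Ccs, the copper chaperone of SOD1, had a log2 fold change of -0.16 and was not called (adjusted p = 0.321).

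In the list of selenoprotein synthesis and other selenoproteins, 2 of 23 genes rose and 1 fell (13.0%; median -0.07). The list leaves out selenoproteins placed elsewhere, among them Gpx3, which rose, and Txnrd2 and Txnrd3, which fell. Lrp8, a receptor for selenoprotein P and reelin, rose 11.2-fold, from 1.38 ± 0.57 to 15.4 ± 3.77 CPM (adjusted p = 2.66e-05). Selenom rose 1.25-fold and Scly, which recycles selenium, fell 1.26-fold (adjusted p = 0.0363 and 0.038). Selenom kept its call without control replicate 3 or cKO replicate 4 only, and Scly without control replicate 1 only. Without control replicate 4, 2 genes of the list fell, among them Secisbp2, a factor of selenocysteine insertion (adjusted p = 0.0293, against 0.0816 in all libraries). With total counts the medians of the peroxiredoxin and selenoprotein lists were 0.02 and 0.02, and those of glutathione recycling and of superoxide sources, both near 0, changed sign among the alternatives.

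**Figure D4:**
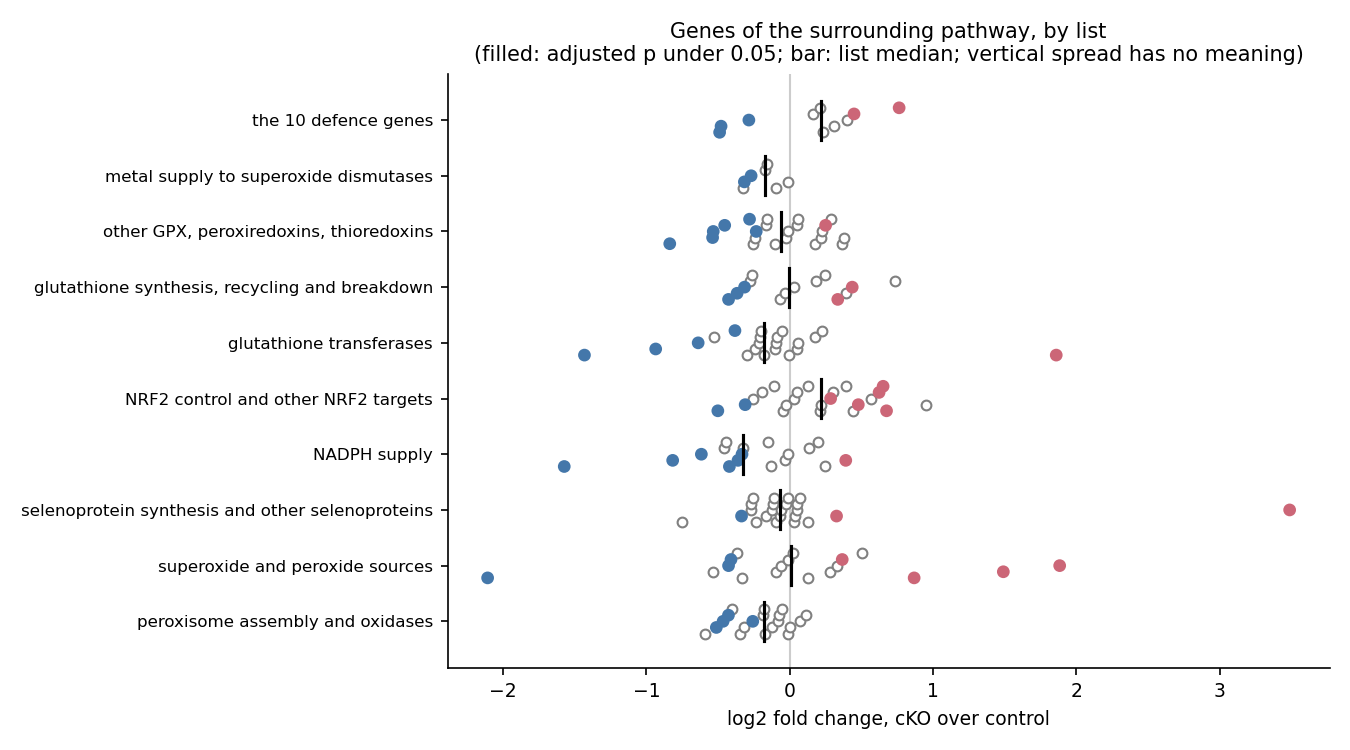
Log2 fold change (cKO over control) of each tested gene in the 10 defence genes and the 9 surrounding lists, filled where the adjusted p was under 0.05 (red higher, blue lower), with black bars at list medians. Medians run from -0.33 for NADPH supply to 0.22 for the defence genes and the NRF2 list.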

How the data were processed

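The authors deposited whole-number counts per gene symbol, 1 column per library, and each of the 8 columns was matched by name to 1 sample label. Per the submitters' processing notes, the builds were GRCm38 and mm10 and the tools were HISAT2 2.0.4, featureCounts 1.6.0, edgeR 3.30.3 and FastQC 0.11.4, with no roles given. The kit was stranded and selected mRNA, per the labels' protocols. Not given in the sources used here are which annotation was counted, with which strand setting, and how multiply aligned reads were treated. Of 54132 rows, 24 hold a number in place of a symbol (0.115% to 0.132% of counts) and were left out.

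Counts were tested with the quasi-likelihood test of edgeR 4.0.16 (R 4.3.3, limma 3.58.1), with TMM, filterByExpr defaults, genotype as the only term and Benjamini-Hochberg adjustment over 16051 genes. The threshold was an adjusted p under 0.05, and tests were two-sided. SE is the absolute log2 fold change over the square root of F. A CPM of 1 is about 20 to 25 reads. The script was tested on simulated data. Libraries of 1 genotype differed by a chi-square per degree of freedom of 7.09 to 31.2, so none was a duplicate. Alternatives were other scalings (including DESeq2 1.42.0 size factors), filters, tests (DESeq2, limma-voom), robust dispersions, sex as a covariate, males only, leaving out each library or the mitochondrially encoded genes, and a stricter adjusted p (under 0.01). Principal transcript lengths and the test of genotype by sex were added after seeing the data.

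Members and lists were chosen with earlier results of these data known. Named from each list were up to 4 genes with the smallest adjusted p. Positions and lengths are from GENCODE M21, and promoters from the RefSeq table of GRCm38.p6.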

Additional observations from a re-analysis of the deposited data

Results flagged for a closer look

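Among the 10 genes in 2 genotypes, 2 of 20 groups of 4 libraries held a value far from the rest, by the gap to its nearest neighbour as a share of the group's range, and chance gives about 1 in 20 groups. Nqo1 in cKO had a gap of 0.88, set by the female, replicate 3, at 95.2 CPM against 55.7 to 60.5 in the males. Gpx1 in cKO had a gap of 0.853, set by replicate 2 at 49.1 CPM against 51.7 to 52.2 in the other libraries, a group whose whole range is small.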

How the results depend on the processing

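Every one of the 10 genes kept the direction of its fold change under all 19 alternatives that changed the fit. Sod2, Gpx3 and Gclm were called in 19 of 19, Sod1 in 14 and Sod3 in 13, and Cat, Nqo1, Gpx1, Gpx4 and Gclc, not called as reported, in 4, 2, 1, 1 and 1. Leaving out single libraries gave 1 to 2 genes of the set that rose. With total counts only, 4 of the set rose (Cat, Sod3, Gpx4 and Gpx3) and 1021 of all tested genes fell. At an adjusted p under 0.01, 1 of the set rose (Gpx3), and 808 of all tested genes rose and 817 fell. No paired analysis was possible because no label pairs a control library with a cKO library. With 4 libraries a genotype, a miss of the threshold by Cat, Gpx1, Gpx4, Gclc or Nqo1 does not show a level unchanged.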
